A study of Mus musculus with 26 samples.

Results

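A set of 9 genes that mark dendritic cells was followed in RNA-seq of sorted myeloid cells from wild-type (WT) and ACKR2-/- mice. The 9 genes were Zbtb46, Flt3, Clec9a, Cd209a, Siglech, Batf3, Ccr7, Itgae and Kmo. They were chosen by name, with earlier results of these data known, and were found in all 3 tables of counts. These listed 54375 genes for bone marrow monocytes, 54863 for small peritoneal macrophages (SPMs) and 57186 for MHCII negative lung macrophages.

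ACKR2 is an atypical chemokine receptor that takes up inflammatory chemokines without classical signalling. The 26 samples were 4 WT and 4 ACKR2-/- samples of monocytes, 4 and 4 of SPMs, and 5 and 5 of lung macrophages, all from naive, untreated female mice. The methods give an age of 8 to 10 weeks for animals in general, with no separate age for these samples. WT C57BL/6J mice were bought in and the ACKR2-/- mice were bred as a homozygous colony elsewhere, so the genotype and the colony cannot be told apart. Each monocyte and SPM sample pooled cells of 5 mice, and how many animals went into a lung sample is not stated. Monocytes were sorted as CD11b+ Ly6C+ cells without F4/80, SPMs as CD11b+ MHCII+ cells with intermediate F4/80, and lung cells as interstitial CD11b+ F4/80+ cells without MHCII. None of these gates was a dendritic cell gate.

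Dendritic cells take up antigen and present it to T cells. Conventional type 1 cells depend on Batf3 and carry Clec9a, a receptor for dead cells, and often the integrin chain Itgae (CD103). Type 2 cells and monocyte-derived cells can carry the lectin Cd209a, plasmacytoid cells carry Siglech, and mature cells of either conventional type gain Ccr7, the receptor that guides them to lymph nodes. Zbtb46 is a transcription factor of the conventional lineage and Flt3 the receptor for its growth factor. Kmo is an enzyme of the kynurenine pathway of tryptophan breakdown. None of these genes is exclusive to dendritic cells: Ccr7 is carried by naive T cells and B cells, and Itgae by T cells in epithelia.

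Sequence before the RefSeq transcript start is shown for Siglech, which differed between the genotypes in monocytes, and for Cd209a and Batf3, which set SPMs apart. These are the 250 bases before the RefSeq start on build GRCm38.p6, 5′ to 3′ on the gene's strand. Capitals mark GAGGAAG, a core of sites of the myeloid factor PU.1. The windows are chr7:55767934-55768183 on the plus strand for Siglech, chr8:3748985-3749234 on the minus strand for Cd209a and chr1:191098164-191098413 on the plus strand for Batf3.
Siglech: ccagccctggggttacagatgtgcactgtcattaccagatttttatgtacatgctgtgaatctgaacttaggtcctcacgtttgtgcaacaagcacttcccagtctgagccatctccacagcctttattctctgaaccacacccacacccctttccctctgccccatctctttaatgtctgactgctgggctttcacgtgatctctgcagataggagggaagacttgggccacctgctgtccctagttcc
Cd209a: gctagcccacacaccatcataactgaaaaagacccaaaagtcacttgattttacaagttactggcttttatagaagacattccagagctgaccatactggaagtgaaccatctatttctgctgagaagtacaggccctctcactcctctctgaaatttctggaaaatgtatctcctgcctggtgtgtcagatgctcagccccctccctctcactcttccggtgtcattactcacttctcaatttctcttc
Batf3: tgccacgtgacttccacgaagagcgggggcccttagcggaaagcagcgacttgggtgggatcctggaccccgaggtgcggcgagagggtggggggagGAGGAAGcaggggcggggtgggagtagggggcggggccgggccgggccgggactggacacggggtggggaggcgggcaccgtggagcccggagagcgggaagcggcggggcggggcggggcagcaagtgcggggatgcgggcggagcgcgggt
RefSeq windows were found for 7 of the 9 genes, and Ccr7 and Itgae were not among them. The motifs searched on both strands were TGANTCA (AP-1), CAGCTG (an E-box) and GAGGAAG (PU.1). GAGGAAG was present in the window of Batf3, beginning 153 bases before the RefSeq start, and in that of Kmo, 103 bases before it. It was present in 10.6% of 32851 windows of the same length. TGANTCA was present in the window of Zbtb46, 61 bases before the RefSeq start, and in 6.75% of all windows. The windows of Zbtb46, Kmo and Batf3 lie inside the genes as counted. Those genes begin at chr2:181459426 on the minus strand, chr1:175620381 and chr1:191097847. The end of the Siglech window overlaps the counted gene, which begins at chr7:55768178. These windows may therefore hold transcribed or intron sequence. CAGCTG was in 0 of the 7 windows and in 4271 of all 32851. A match is only a run of letters and shows no binding.

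Between 12781144 and 35400034 reads per sample were counted on genes. Levels are given as CPM, the reads of a gene relative to the sample's total, scaled over all 26 samples with TMM factors, and per kilobase (RPKM) where genes are compared with each other. The TMM factors were 0.490 to 0.734 in SPMs, 1.16 to 1.54 in monocytes and 1.14 to 1.46 in lung macrophages, so comparisons with SPMs depend on the scaling. Ackr2 itself was read 0 times in all ACKR2-/- monocytes and SPMs. It was at 0.385 to 1.09 CPM in WT SPMs and was read only 2 times in 1 of 4 WT monocyte samples. In lung it lay between 5.78 and 18.3 CPM in 4 WT samples and between 0.234 and 1.35 CPM in ACKR2-/- samples. The library labelled WT replicate 5 held 0 reads, so Ackr2 did not bear out its label. The epithelial gene Sftpc was at 166 CPM in that library and at 2508 to 7099 CPM in the other WT lung libraries. Whether the low Ackr2 and the low Sftpc are linked was not tested. The gated gene H2-Ab1 was at 44948 to 66824 CPM in SPMs and at 211 to 1408 CPM in 9 lung samples, and the lung library labelled WT replicate 3 stood apart at 15833 CPM. The members' lung fold changes that use WT libraries are therefore also given without both of these libraries, and levels are given over all 5. In bulk samples, fewer cells of a type and less RNA per cell cannot be told apart.

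**Figure D1:**
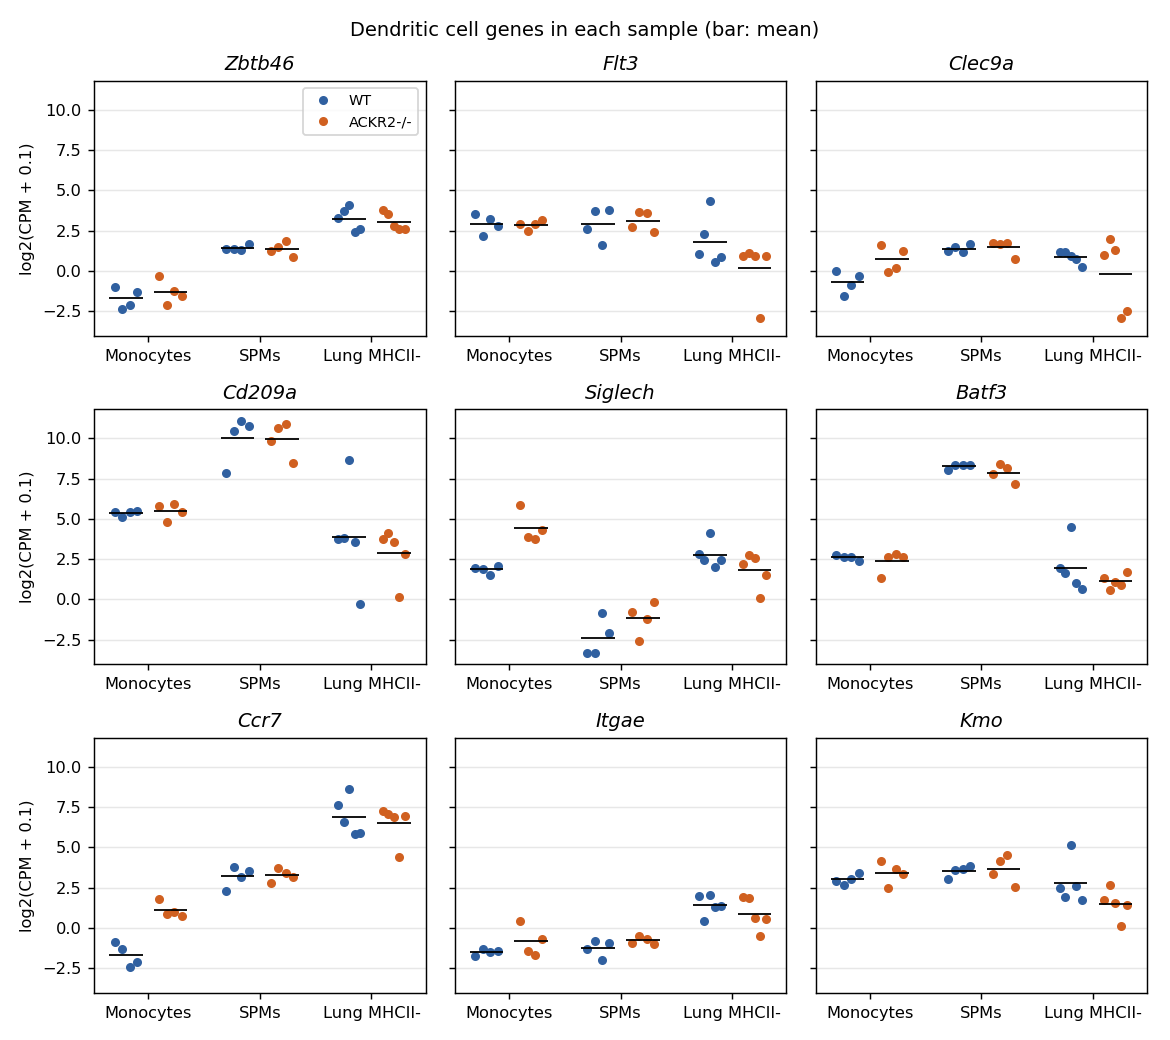
Level of each of the 9 genes in each of the 26 samples, as log2(CPM + 0.1), by cell type and genotype (points: samples; bars: mean of the log values). Cd209a and Batf3 are highest on average in SPMs, Ccr7 and Zbtb46 in lung, and Siglech and Ccr7 are higher in all 4 ACKR2-/- monocyte samples than in any WT sample.

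In monocytes, Siglech and Ccr7 were higher in ACKR2-/- samples. Siglech, a lectin-like receptor of plasmacytoid cells, was at 3.75, 3.58, 2.78 and 4.16 CPM in the 4 WT samples. It was at 59.0, 14.7, 13.4 and 20.1 CPM in the 4 ACKR2-/- samples. The groups did not overlap, and ACKR2-/- replicate 1 stood above the other 3. The log2 fold change was 2.95 (SE 0.46, edgeR adjusted p = 0.00795), a 7.71-fold difference, and without ACKR2-/- replicate 1 it was 2.18 (SE 0.20), still called. Ccr7 was at 0.450, 0.294, 0.0868 and 0.133 CPM in WT and 3.35, 1.71, 1.88 and 1.58 CPM in ACKR2-/- monocytes. These groups did not overlap either, although the WT counts were low, with 20 reads over 4 samples against 206. The log2 fold change was 3.17 (SE 0.49, edgeR adjusted p = 0.00726). Calls between genotypes, from the fit of each cell type alone, required a log2 fold change beyond 0.5 in either direction and a Benjamini-Hochberg adjusted p below 0.05.

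These were 2 of 7 tested members, both upward, where 1.27% of 13246 genes were called and 0.913% were called higher in ACKR2-/-. The members were chosen with earlier results of these data known, so their share is not independent of that choice. Groups that do not overlap were found for 10.2% of all genes. Clec9a was at 0.900, 0.245, 0.434 and 0.709 CPM in WT and 2.95, 0.853, 1.02 and 2.27 CPM in ACKR2-/- monocytes. Of the 4 ACKR2-/- samples, 3 were above every WT sample, and the log2 fold change of 1.66 (SE 0.50) was not called by edgeR (adjusted p = 0.137) but was by DESeq2 (adjusted p = 0.0454). Kmo (0.53, SE 0.30), Cd209a (0.23, SE 0.21), Flt3 (-0.11, SE 0.28) and Batf3 (-0.14, SE 0.27) were not called, with adjusted p from 0.392 to 0.873. Zbtb46 and Itgae were too low for the fit. Zbtb46 was at 0.235 ± 0.145 CPM in WT and 0.348 ± 0.239 CPM in ACKR2-/- (SD, n = 4; exact two-sided permutation p = 0.486). Itgae was at 0.255 ± 0.0395 CPM in WT and 0.563 ± 0.480 CPM in ACKR2-/- (SD, n = 4; exact two-sided permutation p = 0.257). The smallest p this design allows is 0.0286, and 4 such tests were run.

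Genes of some other cell types also differed between the genotypes in monocytes. The gene lists, too, were chosen with earlier results of these data known. Of the 8 plasmacytoid list genes, 2 rose in ACKR2-/- monocytes, Cox6a2 (log2 fold change 2.61, SE 0.40) and Klk1 (3.43, SE 0.52), and 0 fell; the list's median log2 fold change was 1.61 against 0.00 over all genes. Tcf4, the defining factor of plasmacytoid cells, was at 25.9 ± 3.62 CPM in WT and 27.8 ± 8.35 CPM in ACKR2-/- monocytes (SD, n = 4) and was not called. Of 10 T cell genes, 9 rose, among them Cd3d (4.38, SE 0.22), Cd3e (5.38, SE 0.61), Trbc2 (5.06, SE 0.32) and Cd8a (4.23, SE 0.48). The summed T cell list was at 3.04 to 4.31 CPM in WT and 54.2 to 98.3 CPM in ACKR2-/- monocytes, and no T cell gene was at 0 throughout either group. Of the 2 NK cell genes tested, Klre1 rose (4.43, SE 0.55) and Nkg7 was not called (-0.12), and the summed NK cell list was at 672 ± 203 CPM in WT and 611 ± 426 CPM in ACKR2-/- monocytes (SD, n = 4). In the B cell list, 0 of 4 tested genes were called. The summed neutrophil list was at 11273 to 32498 CPM in WT and 3658 to 17984 CPM in ACKR2-/- monocytes. All 5 of its genes had lower estimates in ACKR2-/-, and none was called. Cd209d, a paralog of Cd209a that may share reads with it, rose as well (1.43, SE 0.30). The part of T cells or plasmacytoid cells in the Ccr7 and Siglech differences was not tested.

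**Figure D2:**
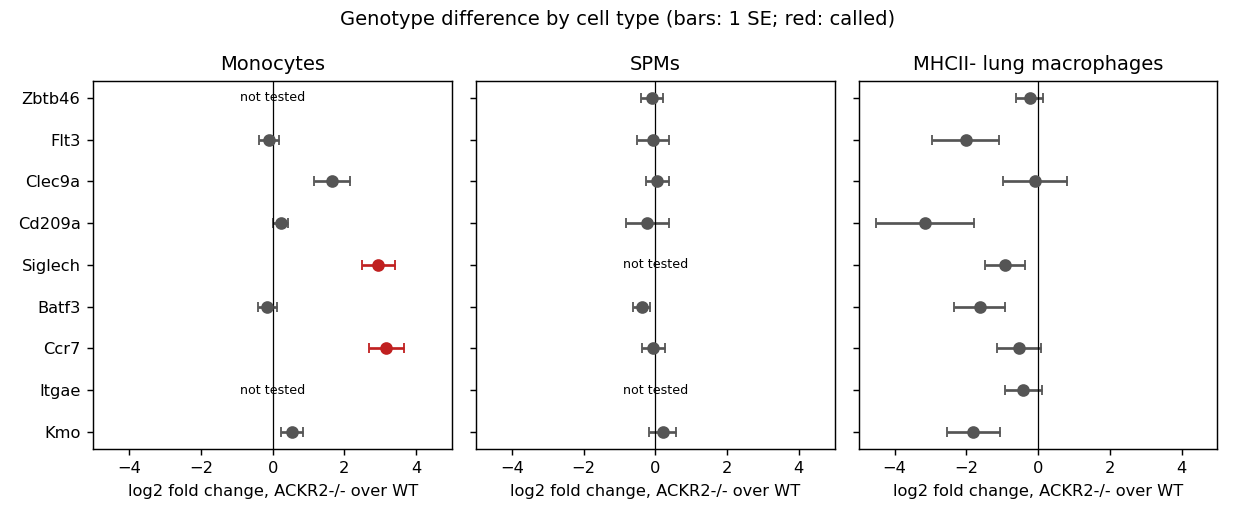
Log2 fold change of each gene, ACKR2-/- over WT, in each cell type's own fit (points; bars: 1 SE; red: called; genes below the filter are marked as not tested). Only Siglech and Ccr7 in monocytes are called, at 2.95 and 3.17, and all 9 lung estimates lie below 0.

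In SPMs the 9 genes did not pass the test between genotypes. None of the 7 tested members was called, where 0.0462% of 12997 genes were called, and by DESeq2 0 members were called too; 0 members were at an unadjusted p under 0.05. Cd209a was at 230, 1382, 2157 and 1726 CPM in WT and 927, 1618, 1930 and 355 CPM in ACKR2-/- SPMs. The samples of each genotype spread over most of the range of the other, and the difference between genotypes was well within its SE (log2 fold change -0.22, SE 0.60). Batf3 was tighter, at 259, 319, 332 and 320 CPM in WT and 221, 336, 283 and 146 CPM in ACKR2-/- SPMs (-0.38, SE 0.25, adjusted p = 0.788). Ccr7 was at 9.78 ± 3.82 CPM in WT and 9.75 ± 2.51 CPM in ACKR2-/- SPMs (SD, n = 4). Kmo was at 8.25, 11.9, 12.4 and 14.1 CPM in WT and 10.1, 17.5, 22.8 and 5.78 CPM in ACKR2-/- SPMs (0.21, SE 0.38). Flt3 was at 9.03 ± 5.37 CPM and 9.01 ± 3.65 CPM, Zbtb46 at 2.60 ± 0.336 CPM and 2.56 ± 0.785 CPM and Clec9a at 2.53 ± 0.399 CPM and 2.75 ± 0.810 CPM in WT and ACKR2-/- SPMs (SD, n = 4). No member had groups that did not overlap, where 3.4% of all genes did. Siglech was read 0 times in WT replicates 1 and 2, which allows up to 0.231 and 0.278 CPM, and reached at most 0.797 CPM in the other SPM samples (exact two-sided permutation p = 0.229, n = 4). Itgae was at 0.335 ± 0.136 CPM in WT and 0.486 ± 0.0999 CPM in ACKR2-/- SPMs (SD, n = 4; exact two-sided permutation p = 0.143). Among the list genes, 0 of 7 tested type 1, 0 of 5 type 2 and 0 of 5 plasmacytoid genes were called in SPMs.

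In lung macrophages all 9 estimates were below 0, and none was called, where 0% of 16824 genes were called and 2.97% had an unadjusted p under 0.05 (499 genes; DESeq2 called 15 genes, among them 0 of the 6 members for which it gave an adjusted p). In all, 3 members had an unadjusted p under 0.05, all lower in ACKR2-/-, as had 1.72% of all genes. These were Kmo (-1.80, SE 0.73), Cd209a (-3.15, SE 1.36) and Batf3 (-1.63, SE 0.72), each with an adjusted p of 1.00 by edgeR, and DESeq2 gave no adjusted p for any of these 3. Cd209a was at 13.4, 14.1, 398, 11.7 and 0.727 CPM in the WT libraries and 13.5, 17.6, 11.8, 1.00 and 7.05 CPM in the ACKR2-/- libraries. WT replicate 3 was far above the other 9 libraries. Batf3 was at 3.82, 3.03, 22.3, 1.95 and 1.49 CPM in WT and 2.40, 1.40, 2.05, 1.74 and 3.10 CPM in ACKR2-/-. Kmo was at 5.45, 3.63, 35.4, 6.05 and 3.23 CPM in WT and 3.24, 6.13, 2.86, 0.971 and 2.57 CPM in ACKR2-/-.

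The other 6 members were further from the threshold or as dependent on single libraries. Flt3 was at 1.99, 4.75, 20.3, 1.35 and 1.74 CPM in WT and 1.83, 2.09, 1.76, 0.0335 and 1.80 CPM in ACKR2-/- lung libraries (-2.01, SE 0.94). WT replicate 3 was again the high library, and without it the estimate was -0.66 (SE 0.77). Ccr7, the most abundant member per length in lung, was at 196, 94.3, 394, 56.7 and 60.5 CPM in WT and 155, 134, 117, 20.7 and 126 CPM in ACKR2-/- (-0.54, SE 0.61). The ranges overlapped, with the highest value in a WT library and the lowest in an ACKR2-/- library, and 4 of the 5 ACKR2-/- libraries lay between 117 and 155 CPM. Siglech was at 7.01, 5.34, 17.6, 3.93 and 5.25 CPM in WT and 4.48, 6.61, 5.86, 0.971 and 2.80 CPM in ACKR2-/- (-0.92, SE 0.55). Zbtb46 was at 10.2 ± 4.90 CPM in WT and 8.78 ± 3.55 CPM in ACKR2-/- (SD, n = 5), and Itgae at 2.79 ± 1.14 CPM and 2.12 ± 1.39 CPM (SD, n = 5). Clec9a was at 1.75 ± 0.433 CPM in WT and 1.66 ± 1.64 CPM in ACKR2-/- (SD, n = 5), the nearest to 0 of the 9 estimates (-0.08, SE 0.89). Without WT replicates 3 and 5 the estimates were -0.78 for Flt3, -0.0045 for Ccr7, -0.34 for Siglech, -0.065 for Zbtb46, -0.21 for Itgae and -0.21 for Clec9a, with 0 members called.

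The library labelled WT replicate 3 was the highest of the 10 lung libraries for 8 of the 9 members, and ACKR2-/- replicate 4 the lowest for 6. In replicate 3, Cd209a was 33.7 times, Flt3 11.3 times, Kmo 10.9 times and Batf3 10.9 times the median of the other 9 libraries. Clec9a, at 1.77 CPM, was 0.925 times that median. Without replicate 3, the log2 fold changes were 0.06 for Cd209a, -0.21 for Batf3 and -0.52 for Kmo, and without replicates 3 and 5 they were -0.33, -0.39 and -0.65. The same library held the most H2-Ab1, while the epithelial gene Sftpc was at 3452 CPM there, within the range of 151 to 8334 CPM over the 10 libraries. In ACKR2-/- replicate 4, Flt3 and Clec9a had 1 read each, and Sftpc was at 151 CPM. Groups that do not overlap were found for 0 of the 9 members and 0.446% of all lung genes.

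**Figure D3:**
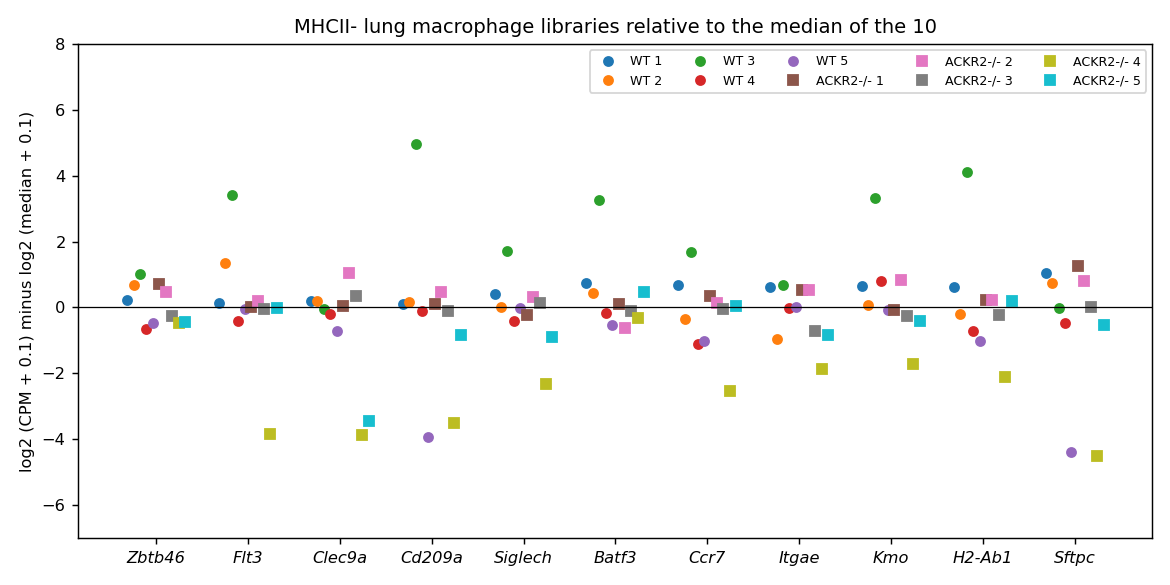
Level of the 9 genes, H2-Ab1 and Sftpc in each of the 10 lung macrophage libraries, as log2(CPM + 0.1) minus that of the median library (circles: WT; squares: ACKR2-/-). WT replicate 3 is the highest for 8 of the 9 genes and for H2-Ab1, and ACKR2-/- replicate 4 is the lowest for 6 of the 9.

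The levels of the 9 genes differed between the cell types, with Cd209a among the highest in all 3. Cell types were compared in a joint fit of all 26 samples over 17792 genes, where a call required a log2 fold change beyond 1 in either direction besides an adjusted p below 0.05. Each cell type was deposited as its own table. Per the methods, lungs were digested with enzymes, marrow was flushed and peritoneal cells were collected by lavage. Cell type, tissue preparation, counting and sequencing run therefore cannot be told apart. Per length, the highest members in WT monocytes were Cd209a at 25.9 ± 2.90 RPKM and Batf3 at 3.78 ± 0.405 RPKM (SD, n = 4). In WT SPMs they were Cd209a at 868 ± 522 RPKM and Batf3 at 193 ± 20.6 RPKM (SD, n = 4), and in WT lung macrophages Ccr7 at 81.1 ± 71.9 RPKM (SD, n = 5). The lowest were Zbtb46 in monocytes (0.0276 RPKM), Siglech in SPMs (0.0446 RPKM) and Clec9a in lung (0.530 RPKM).

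In SPMs against monocytes, 6 of 9 members were called in WT (32.4% of all genes) and 5 in ACKR2-/- (30.4% of all genes). Batf3 rose 51.0-fold in WT (log2 fold change 5.67, SE 0.64), Cd209a 33.5-fold (5.07, SE 1.20), Ccr7 (5.35, SE 0.73) and Zbtb46 (3.45, SE 0.51), and Siglech fell (-4.88, SE 0.89). Clec9a was called in WT (2.14, SE 0.79) and lost its call under total counts without TMM (0.97, SE 0.81), a setting that shifted the median of all genes by -0.96. It was called in only 3 of 8 fits without 1 sample. Ccr7 in ACKR2-/- (2.19, SE 0.57) lost its call there too (0.92, SE 0.56). Flt3, Itgae and Kmo were not called in either genotype. Of the 5 tested Cd209 paralogs, all 5 were higher in WT SPMs, and Cd209d was at 92.4 ± 26.9 CPM there (SD, n = 4). All 6 MHC class II genes were higher in SPMs, for whose gate MHCII was used. The summed T cell list was at 415 to 874 CPM in WT SPMs and 3.04 to 4.31 CPM in WT monocytes, and all 10 of its genes were higher in WT SPMs. Of the 6 B cell genes, 5 were higher in WT SPMs, with a median log2 fold change of 5.96 over the list, and the summed list was at 469 to 1658 CPM in WT SPMs and 508 to 567 CPM in WT monocytes. Its member Cd79a was at 117 to 475 CPM in WT SPMs and 1.95 to 3.43 CPM in WT monocytes. The part of T cells and B cells in the Ccr7 difference was not tested.

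In lung macrophages against monocytes, 3 of 9 members were called in WT (52.5% of all genes) and 7 in ACKR2-/- (51% of all genes). Ccr7 was called in WT at 9.38 (SE 0.79), where monocytes held 20 reads, and in ACKR2-/- at 5.69 (SE 0.63). Zbtb46 (5.41, SE 0.52) and Itgae (3.42, SE 0.59) were called in WT as well, and in ACKR2-/- (4.63, SE 0.49, and 1.90, SE 0.54). In ACKR2-/-, Siglech (-2.69, SE 0.55), Flt3 (-2.28, SE 0.69), Kmo (-1.87, SE 0.57) and Batf3 (-1.34, SE 0.52) were lower in lung, the last called in only 4 of 9 fits without 1 sample. None of these was called in WT over all libraries. There, Siglech was at 1.13 (SE 0.56), Flt3 at -0.41 (SE 0.67), Kmo at 0.39 (SE 0.57) and Batf3 at 0.11 (SE 0.51). All 8 genes of the mature dendritic cell list were higher in WT lung macrophages than in WT monocytes, among them Cd83, at 2903 ± 727 CPM in WT lung and 1.23 ± 0.660 CPM in WT monocytes (SD, n = 5 and 4). The lung library labelled WT replicate 3 decides some of these: without it and replicate 5, 6 members were called in WT, with Flt3 (-1.57), Cd209a (-1.65) and Batf3 (-1.05) lower and Ccr7 (8.91), Zbtb46 (5.30) and Itgae (3.26) higher in lung. The T cell list was at 94.1 to 308 CPM in WT lung and 3.04 to 4.31 CPM in WT monocytes, and the B cell list at 529 to 2878 CPM and 508 to 567 CPM. Their part in the Ccr7 and Itgae differences was not tested. The summed endothelial list was at 70.5 to 426 CPM in WT lung and 6.77 to 7.71 CPM in WT monocytes. Its part in the Zbtb46 difference was not tested.

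In lung macrophages against SPMs, 6 of 9 members were called in WT (52.2% of all genes) and 8 in ACKR2-/- (52.9% of all genes). Batf3 fell by 5.57 (SE 0.58) and Cd209a by 3.97 (SE 1.04) in WT, while Siglech (6.01, SE 0.87), Ccr7 (4.03, SE 0.58), Itgae (2.99, SE 0.60) and Zbtb46 (1.96, SE 0.42) were higher in lung. In ACKR2-/- the same 6 were called in the same directions, joined by Flt3 (-2.57, SE 0.70) and Kmo (-2.15, SE 0.58), which lost their calls without TMM (adjusted p = 0.0817 and 0.131). Without lung WT replicates 3 and 5, the WT values were -6.71 for both Cd209a and Batf3, 5.49 for Siglech, 3.57 for Ccr7, 2.83 for Itgae and 1.85 for Zbtb46, and Flt3 (-1.75) and Kmo (-1.21) were called as well. Of the type 1 list, 3 of 8 were higher and 2 lower in WT lung than in WT SPMs, and of the mature list 7 of 8 were higher. Of the kynurenine list around Kmo, 3 of 8 tested genes were higher and 0 lower. Of all 17792 genes, 5955 were called higher and 3332 lower in WT lung, so 3 of 8 is near the share of all genes. The summed endothelial list was at 70.5 to 426 CPM in WT lung and 2.06 to 2.70 CPM in WT SPMs. Its part in the Zbtb46 difference was not tested.

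**Figure D4:**
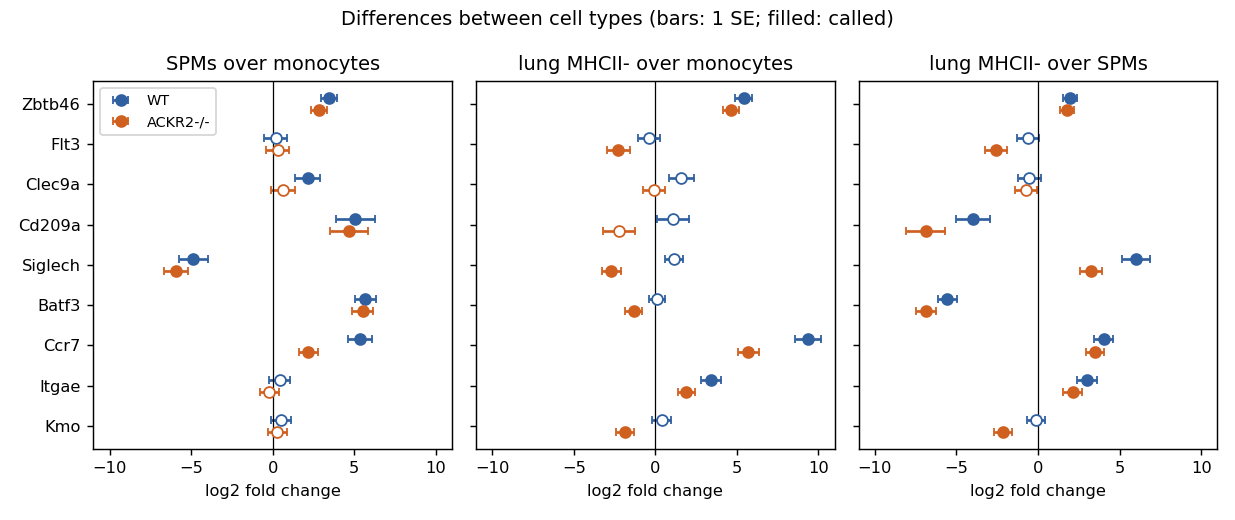
Log2 fold change of each gene between cell types in WT (blue) and ACKR2-/- (orange) samples, from the joint fit (bars: 1 SE; filled: called). Batf3 and Cd209a are higher in SPMs than in both other cell types, and Ccr7 is highest in lung macrophages, at 9.38 over monocytes in WT.

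Ligands and partners of the members were uneven across the cell types. Ccl19 and Ccl21a, the ligands of Ccr7, were read 0 times in all monocyte and SPM samples, and Ccl21a was at 43.4 ± 27.1 CPM in WT lung (SD, n = 5). The summed endothelial list averaged 225 CPM in WT lung, 7.24 CPM in WT monocytes and 2.39 CPM in WT SPMs, and the epithelial list 6161, 0.805 and 3.71 CPM, and their part in the Ccl21a difference was not tested. Flt3l, the ligand of Flt3, was at 3.87 ± 0.830 CPM in WT monocytes and 9.10 ± 1.07 CPM in WT SPMs (SD, n = 4). Itgb7, the chain that pairs with Itgae, was at 361 ± 47.1 CPM in WT monocytes, where Itgae itself was at 0.255 CPM. Tyrobp, the adaptor of Siglech, was at 10042 ± 2274 CPM in WT SPMs, where Siglech was lowest, and 1806 ± 149 CPM in WT monocytes (SD, n = 4). Of the 10 genes of this list, 0 of the 7 tested in monocytes, 0 of 7 in SPMs and 0 of 10 in lung were called between genotypes.

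Whether the genotype difference itself differed between cell types was tested as an interaction. For lung macrophages against monocytes 1 of 9 members was called, Siglech (-3.82, SE 0.79, edgeR adjusted p = 0.0413), where 0.152% of all genes were called. It was called in 7 of 18 fits without 1 sample. Its call was lost with RLE factors, under a replicate block, and without lung WT replicates 3 and 5 (-3.28, adjusted p = 0.0777). It was also lost without monocyte ACKR2-/- replicate 1 (-3.08, adjusted p = 0.168). Ccr7 was at -3.69 (SE 0.87, adjusted p = 0.0935), and at -3.22 (adjusted p = 0.103) without lung WT replicates 3 and 5. For SPMs against monocytes 0 members were called, where 0.253% of all genes were, with Ccr7 at -3.16 (SE 0.92, adjusted p = 0.231) and 1 member at an unadjusted p under 0.05. DESeq2 called Ccr7 there (adjusted p = 0.0277). Of the 10 T cell genes, 9 were called for SPMs against monocytes and 8 for lung macrophages against monocytes, all with a smaller difference than in monocytes. For lung macrophages against SPMs 0 members were called by edgeR or DESeq2, where 0.0393% of all genes were, and 3 had an unadjusted p under 0.05.

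The genes closest to each member in pattern were found by the root mean square difference of centred log2 CPM over the 26 samples, among 17791 genes. Closest to Batf3 were 4933417E11Rik (0.54), H2-DMb1 (0.70) and Cfp (0.74), where the median gene was at 3.22. Closest to Cd209a were Cd209d (0.92), Mzb1 (1.23) and Batf3 (1.25), with a median of 3.44. Closest to Ccr7 were Pmepa1 (0.81), S1pr1 (0.90) and Fcer2a (0.92), with a median of 3.13. Closest to Siglech were Irf8 (1.24), Slc43a3 (1.24) and Lhfpl2 (1.25), with a median of 2.57. Flt3 had Kmo as its nearest gene (0.82), and Siglecg (0.90) was also near. Zbtb46 was nearest to 1110046J04Rik (0.52), Ctsf and Trp53i11, and Clec9a to Cep112 (0.84), Ccpg1os and Ehhadh. Itgae was nearest to Gm15774 (0.48), BC001981 and Aoc1, and Kmo to Rgs10 (0.65), Ccdc166 and Gmds. Some members share their locus: Clec9a overlaps Clec1b on the same strand, and Itgae overlaps Haspin, Kmo overlaps Fh1 and Flt3 overlaps Gm26597 on the opposite strand. Whether counting used strand is not stated, and whether the overlaps include exons was not examined. Reads in any stretch that a pair shares may therefore not be told apart.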

How the data were processed

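Reads were made by the authors from SMARTer-amplified poly-A RNA of sorted cells. Per the labels, HISAT2 2.0.5, featureCounts 1.5.0-p3, DESeq2 and build mm10 were used; their roles are not given for each table. The authors deposited raw read counts per gene, without normalization, in a table per cell type, and 0 value columns were left unmapped. The lung table's 5 summary lines, 56.3% of its counts, were left out. Totals on genes were 15450670 to 19218213 per monocyte sample, 12781144 to 35400034 per SPM sample and 19950019 to 29770252 per lung sample. A count of 0 allows up to 3 reads, which covers counting error only.

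From these counts, genotypes were compared within each cell type with edgeR 4.0.16 in R 4.3.3 (filterByExpr, minimum count 10 and total 15, TMM, quasi-likelihood test, Benjamini-Hochberg adjustment over all tested genes). SEs were derived from the F statistic. Cell types and interactions came from a joint fit. Genotype fold changes come from each cell type's own fit, and levels from the joint scaling. Genes below the filter were compared with exact permutation tests on CPM (scipy 1.17.1). DESeq2 1.42.0, RLE factors, other filters, a robust fit, the adjusted p alone, a replicate block and each sample left out were alternatives; total counts without TMM and the joint removal of 3 lung libraries were added after seeing the data. The scripts were tested on simulated data with a low spread, where nearly all changes had to be recovered. Simulated data with the real spread were also run, and recovery was lower there, above all in lung and for interactions, so a gene that is not called may still differ. The limit first set for that second run was missed and was replaced by the low-spread test.

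The members and the gene lists were chosen with earlier results of these data known. Named are the 9 members, list genes called between genotypes, the leading list genes over 10 CPM in a group, Ackr2, H2-Ab1, T and B cell genes beside Ccr7 or Itgae, and the 3 genes nearest in pattern to each member, of which 1 is not reported here. Sftpc was named after its values were seen. Replicates were separate samples; 0 pairs held identical values.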

Additional observations from a re-analysis of the deposited data

Results flagged for a closer look

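By Dixon's test on CPM, 9 values from 4 libraries lay far from the others of their group, among 54 groups of 4 or 5 values. Chance would flag about 1 in 20 groups only if values were normally spread and groups independent. Of the 9 flags, 5 came from 1 library. The lung library labelled WT replicate 3 was the highest of 5 for Flt3 (20.3 CPM), Cd209a (398 CPM), Siglech (17.6 CPM), Batf3 (22.3 CPM) and Kmo (35.4 CPM). Lung ACKR2-/- replicate 4 was the lowest of 5 for Flt3 (0.0335 CPM) and Ccr7 (20.7 CPM). Monocyte ACKR2-/- replicate 1 was the highest of 4 for Siglech (59.0 CPM), and SPM ACKR2-/- replicate 4 the lowest of 4 for Clec9a (1.54 CPM). The genotype difference of Siglech differed between lung macrophages and monocytes in an interaction test (-3.82 on the log2 scale, edgeR adjusted p = 0.0413). This call held in only 7 of 18 fits without 1 sample and was lost without monocyte ACKR2-/- replicate 1.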

How the results depend on the processing

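Siglech and Ccr7 in monocytes were called under all 7 other settings and in all 8 fits without 1 sample. DESeq2 called 538 genes in monocytes, 30 in SPMs and 15 in lung, and 131, 111 and 24 for the interactions of SPMs with monocytes, lung with monocytes and lung with SPMs, with 1 and 2 members in the first pair. Without a filter on low counts 346 genes were called in monocytes, 52 in SPMs and 42 for the interaction of lung with monocytes, with 2 members. RLE factors left 0 members there. Total counts without TMM gave 8820 (WT) and 10029 (ACKR2-/-) called genes for SPMs against monocytes and 3 for the interaction of lung with SPMs. In WT it reversed Flt3 (-1.04), Itgae (-0.71) and Kmo (-0.68) in SPMs against monocytes, and Flt3 (0.69), Clec9a (0.72) and Kmo (1.15) in lung against SPMs. In lung against monocytes in WT, 6 members were called without lung WT replicates 3 and 5, which reversed Cd209a (-1.65), Batf3 (-1.05) and Kmo (-0.70), and 5 in a fit of the 2 groups alone; the interaction then had 0 members. Without those and ACKR2-/- replicate 4, lung genotype estimates reversed for Zbtb46 (0.034), Clec9a (0.088), Ccr7 (0.26) and Itgae (0.018). The causes were not tested. Monocyte calls were most sensitive to WT replicate 1 (76 without it) and ACKR2-/- replicate 3 (413 without it).

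Replicate numbers did not pair the samples throughout. The correlation of same-numbered samples ran from -0.12 to 0.31 in monocytes, -0.09 to 0.02 in SPMs and -0.08 to 0.64 in lung. WT monocyte replicate 2 and WT lung replicates 1 and 5 matched the ACKR2-/- sample of their own number best. The other WT samples matched a different number best. With the replicate block, 186 genes were called in monocytes, 6 in SPMs and 0 in lung, with 2, 0 and 0 members. The cell type counts under the block were 5781, 9287 and 9289 in WT and 5411, 9013 and 9304 in ACKR2-/-, and the interaction counts 36, 17 and 5, with 0 members. The block reversed Flt3 in SPMs (0.016), Cd209a (-0.14) and Batf3 (-0.23) in lung against monocytes in WT, and the Flt3 interaction of SPMs with monocytes (-0.16).

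With 1 sample left out at a time, called genes ran from 76 to 413 in monocytes, 3 to 8 in SPMs, 29 to 57, 13 to 53 and 4 to 7 for the interactions of SPMs with monocytes, lung with monocytes and lung with SPMs, and called members from 0 to 2 in the second of these and 3 to 6 for lung against monocytes in WT. Genotype estimates that changed sign ran from -0.30 to 0.14 (Flt3) and -0.28 to 0.093 (Batf3) in monocytes. In SPMs they ran from -0.29 to 0.073 (Zbtb46), -0.34 to 0.19 (Flt3), -0.050 to 0.26 (Clec9a), -0.57 to 0.10 (Cd209a), -0.26 to 0.15 (Ccr7) and -0.13 to 0.47 (Kmo). In lung they ran from -0.42 to 0.068 (Zbtb46), -0.66 to 0.24 (Clec9a), -3.50 to 0.060 (Cd209a) and -0.76 to 0.17 (Ccr7). Between WT cell types they ran from -0.11 to 0.46 (Flt3, SPMs against monocytes), -2.03 to 1.42 (Cd209a), -1.23 to 0.36 (Batf3) and -0.83 to 0.62 (Kmo) for lung against monocytes, and -1.34 to 0.11 (Kmo, lung against SPMs). Interactions of SPMs with monocytes ran from -0.16 to 0.40 (Flt3), -1.59 to 0.040 (Siglech), -0.40 to 0.027 (Batf3), -0.91 to 0.10 (Itgae) and -0.57 to 0.062 (Kmo), and of lung with SPMs from -0.40 to 0.069 (Zbtb46), -0.78 to 0.17 (Clec9a), -3.24 to 0.21 (Cd209a), -1.53 to 0.050 (Batf3) and -0.75 to 0.12 (Ccr7).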
